A study of Mus musculus with 16 samples.

Results

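The genes described here are 37 markers of phagocytes and of the lysosome, the organelle in which phagocytes digest what they take up. They were chosen by name: pan-macrophage markers, receptors for the Fc part of antibodies, subunits of the phagocyte NADPH oxidase and lysosomal proteins. All 37 were among the 17370 genes of the deposited table, and all 37 passed the filter on low counts, which kept 15411 genes. They were divided from textbook knowledge into 20 genes largely restricted to myeloid cells, 3 phagocyte genes that other cells also make (Mertk, Axl and Cyba), and 14 lysosomal genes. Muscle fibres and most other cells are known to express most of these 14. Ctsk was kept in the lysosomal class, although it is best known from bone-resorbing osteoclasts. No cell-resolved data were used, so the classes describe what the genes are known for and not where their RNA came from in these libraries.

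The samples were total RNA from the quadriceps of mice, the large muscle at the front of the thigh, in 16 libraries, 4 in each of 4 groups. The groups were injured quadriceps of mice given a CSF1-R inhibitor, healthy quadriceps of mice given the inhibitor, injured quadriceps of mice given placebo, and healthy quadriceps of mice given placebo. Injury was transection of a knee ligament, the anterior cruciate ligament (ACL), so the muscle itself was not the part cut. The inhibitor, at 40 mg/kg, or 0.5% sucrose was in the drinking water for the 7 days after ACL transection, so the healthy limbs had the same agents as the injured ones. The labels give no strain, sex, age or inhibitor name. They call the samples biological replicates. The library names join 1 healthy and 1 injured quadriceps by a shared stem, read here as 8 animals, while the design text speaks of muscle before and after transection.

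As background, macrophages depend on signals through the CSF1 receptor for survival. They bind antibody-coated particles through Fc receptors, whose activating members signal through the adaptor Fcer1g, and they bind dying cells through receptors such as Mertk and Axl. Engulfed material is exposed to superoxide from the NADPH oxidase and is then broken down by cathepsins, glycosidases and lipases in the lysosome. Muscle fibres also carry lysosomes, which receive cell components through autophagy, so lysosomal RNA in muscle comes from more than one kind of cell.

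The stretch of 250 bases before the RefSeq start of 4 members is shown because these genes differ in level and spread although all encode lysosomal proteins. Ctss, a cathepsin counted here with the myeloid-restricted genes, and Ctsk, a cathepsin best known from bone-resorbing osteoclasts, are neighbours on chromosome 3, on the same strand and 17424 bases apart. Ctsd, an aspartic cathepsin, and Lamp1, a protein of the lysosomal membrane, are among the most abundant and most even members. Sequences are from RefSeq (GRCm38.p6), written 5′ to 3′ on the strand of the gene. Capitals mark GAGGAA, the core of sites for the myeloid factor PU.1, or its reverse complement TTCCTC, in Ctss and Ctsk, and CACGTG, the centre of the CLEAR element bound by the lysosomal regulator TFEB, in Ctsd and Lamp1.
Ctss, chr3:95526536-95526785, plus strand: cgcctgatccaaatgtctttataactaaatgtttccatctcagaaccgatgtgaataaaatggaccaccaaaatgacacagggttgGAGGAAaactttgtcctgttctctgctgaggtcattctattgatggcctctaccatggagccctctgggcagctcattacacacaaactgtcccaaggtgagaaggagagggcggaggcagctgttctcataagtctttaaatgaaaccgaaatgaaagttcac
Ctsk, chr3:95498960-95499209, plus strand: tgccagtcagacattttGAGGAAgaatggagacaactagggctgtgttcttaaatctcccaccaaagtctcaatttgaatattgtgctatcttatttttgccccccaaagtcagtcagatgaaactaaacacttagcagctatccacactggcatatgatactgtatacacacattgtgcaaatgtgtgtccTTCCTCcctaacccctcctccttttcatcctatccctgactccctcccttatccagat
Ctsd, chr7:142387828-142388077, minus strand: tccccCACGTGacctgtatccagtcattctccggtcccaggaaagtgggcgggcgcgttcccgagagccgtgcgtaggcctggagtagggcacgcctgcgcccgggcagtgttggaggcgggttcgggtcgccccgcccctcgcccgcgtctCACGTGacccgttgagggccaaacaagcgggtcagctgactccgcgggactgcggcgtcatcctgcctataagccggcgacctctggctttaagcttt
Lamp1, chr8:13158911-13159160, plus strand: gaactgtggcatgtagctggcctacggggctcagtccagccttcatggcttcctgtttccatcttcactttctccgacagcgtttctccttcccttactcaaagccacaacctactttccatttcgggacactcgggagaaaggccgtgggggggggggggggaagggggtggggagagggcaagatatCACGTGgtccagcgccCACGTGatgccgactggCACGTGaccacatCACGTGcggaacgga

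Lamp1 held CACGTG 4 times within the last 61 bases before its start, and Ctsd held it 2 times. RefSeq gave such a stretch for 30 of the 37 members, of which 14 were myeloid-restricted, 3 shared with other cells and 13 lysosomal. CACGTG, which reads the same on both strands, was in 3 of the 13 lysosomal stretches (Ctsd, Ctsl and Lamp1), in 0 of 14 myeloid-restricted ones and in 0 of the 3 shared ones, against 6.04% of 27025 genes. The longer palindrome TCACGTGA, which contains CACGTG, was in Ctsd alone among the members and in 0.803% of all genes. GAGGAA on either strand was in 6 of 14 myeloid-restricted stretches (Aif1, Ctss, Fcgr1, Fcgr3, Itgam and Laptm5), in 5 of 13 lysosomal ones (Ctsk, Grn, Lamp2, Lipa and Psap), in 1 of 3 shared ones (Axl) and in 23.1% of all genes. For Ctss and Lamp1 the RefSeq start was also that of the gene in GENCODE M21, from which distances between genes and exon lengths were taken. For Ctsk the GENCODE gene starts 46 bases further downstream. For Ctsd it starts 211 bases further upstream, so 211 of the 250 printed bases, with the CACGTG nearer the RefSeq start, lie inside the GENCODE gene. A match describes the letters of these windows and is not a measured binding site.

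Levels are given as CPM, the usual scaling of a count by the size of its library, with TMM factors, which align libraries on the bulk of their genes. Library totals were 20.12 to 27.13 M (mega) counts, so that 3 counts, used here as the floor of detection, were worth 0.109 to 0.159 CPM. This floor covers counting error only. All 7 muscle fibre markers were detected in each group, with a summed level of 83402 to 158497 CPM per library. The 4 libraries healthy inhibitor 1, injured placebo 2, injured placebo 3 and healthy placebo 4 stood apart in Prg4, the lubricin made by cells of the joint surface: they had 169, 220.3, 286 and 251 CPM, and the other 12 libraries 3.97 to 19.5 CPM. The same 4 libraries were the highest for a list of 10 joint lining and cartilage genes, at 224, 306, 350 and 325 summed CPM, against 14.4 to 51.4 in the others. That list includes Prg4, which supplied most of the sum in these 4 libraries, so the sum is not independent of the Prg4 values. Several results below rest on 3 of these 4 libraries and are given with and without the 4.

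The myeloid-restricted genes were scarce in the muscle and uneven between libraries, and the lysosomal genes were more abundant and less uneven, although 9 of 14 were more uneven than the median tested gene. Per kilobase of exon, the median level over the 16 libraries ran from 0.0626 (Msr1, a scavenger receptor) to 2.01 CPM (Ctss) among the 20 myeloid-restricted genes, with a median of 0.361. Among the 14 lysosomal genes it ran from 1.16 (Lipa, the lysosomal acid lipase) to 260.0 CPM (Psap, the precursor of the saposins that aid lipid breakdown), with a median of 11.1. Cyba, Axl and Mertk had 2.89, 6.17 and 0.726 CPM per kilobase.

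The spread followed the opposite order. The highest library exceeded the median library by a ratio of 4.94 (Cd14, the lipopolysaccharide co-receptor) to 52.9 (Ms4a7, a membrane protein of mature macrophages) among myeloid-restricted genes, with a median ratio of 14.9, against a median ratio of 1.41 over all tested genes. Lysosomal genes had ratios of 1.10 to 8.35, with a median of 1.92, and fell into a graded series. Ctsd, Psap, Lamp1, Lamp2 and Ctsl were the most even, with ratios of 1.10, 1.12, 1.26, 1.31 and 1.32. Ctsb, Hexa, Gusb, Npc2 and Ctsz followed with 1.62 to 2.94, and Lipa, Grn, Lgmn and Ctsk were the least even, with 3.50, 4.46, 4.91 and 8.35. Ctsk, at 2.42 CPM per kilobase, and Lipa were thus closer in level and spread to the myeloid-restricted genes than Ctsd or Psap were. Of the myeloid-restricted genes, 8 had at least 1 library with 3 or fewer counts, and 5 of them (Aif1, Fcgr1, Ms4a7, Msr1 and Ncf4) had a library at 0, so their fitted log2 differences depend on the prior count.

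**Figure D1:**
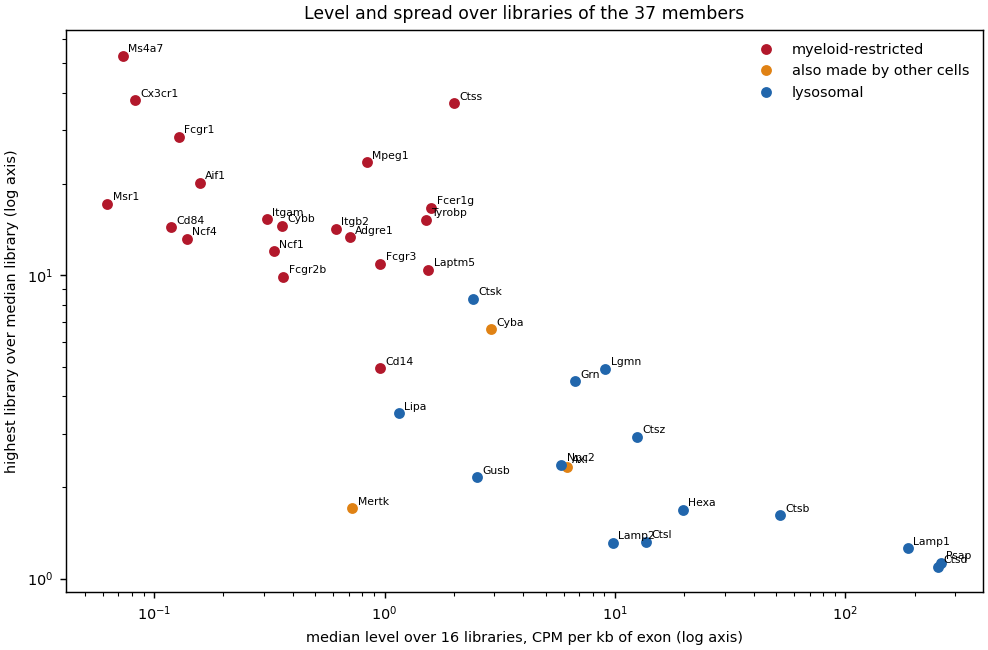
Median level over 16 libraries (CPM per kilobase of exon, log axis) against the ratio of the highest to the median library (log axis) for each of the 37 members, coloured by class. Myeloid-restricted genes lie at low levels with ratios of 4.94 to 52.9, and lysosomal genes reach 260.0 CPM per kilobase with ratios of 1.10 to 8.35.

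The same few libraries set the high values of nearly all members. Injured placebo 2 was the highest library for 20 of the 20 myeloid-restricted genes. The 3 highest libraries were injured placebo 2, injured placebo 3 and healthy placebo 4 for all 20, in that order for 19 of them, with Msr1 as the exception. The same 3 libraries were the highest for Axl and Cyba but not Mertk, for 10 of 14 lysosomal genes (not Ctsd, Ctsl, Lamp1 or Psap), and for 11.0% of all tested genes.

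Summed over the 20 myeloid-restricted genes, injured inhibitor libraries had 29.6, 17.2, 52.7 and 24.4 CPM, against 52.7, 525, 400.4 and 35.4 CPM in injured placebo libraries. Healthy inhibitor libraries had 48.6, 22.8, 24.9 and 19.0 CPM, against 10.8, 30.8, 14.5 and 221 CPM in healthy placebo libraries. The 4 injured inhibitor libraries did not exceed injured placebo 1, and the other injured placebo library, number 4, lay within their range. Csf1r, which encodes the receptor the inhibitor is named for, had 9.51, 6.03, 11.6 and 7.85 CPM in injured inhibitor libraries, against 16.4, 63.8, 60.0 and 10.4 CPM in injured placebo libraries, and 14.5, 8.48, 6.97 and 3.39 CPM in healthy inhibitor libraries, against 1.83, 12.7, 3.45 and 29.9 CPM in healthy placebo libraries. Its 3 highest libraries were those of the myeloid-restricted genes. In bulk tissue, fewer myeloid cells and less RNA per cell cannot be told apart.

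The summed level of the 14 lysosomal genes moved far less. It was 2350, 2307, 2364 and 2398 CPM in injured inhibitor libraries, against 2692, 3177, 2880 and 2473 CPM in injured placebo libraries, so these groups did not overlap. Healthy inhibitor libraries had 2452, 2458, 2327 and 2434 CPM, against 2614, 2281, 2388 and 2806 CPM in healthy placebo libraries, and these groups overlapped. Again injured placebo 2, injured placebo 3 and healthy placebo 4 were the highest libraries.

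Markers of some other cell types were also high in the libraries that carried these genes, and those of others were not. In the order healthy inhibitor 1, injured placebo 2, injured placebo 3 and healthy placebo 4, the summed level of 9 detected neutrophil markers was 20.0, 21.6, 4.05 and 31.0 CPM, against 0.318 to 1.88 CPM in the other 12 libraries. Of these 9, Mpo, Elane, Camp and Ngp were at 0 in all 4 injured inhibitor libraries and in injured placebo 1, 3 and 4. They exceeded 3 counts only in healthy inhibitor 1, injured placebo 2 and healthy placebo 4. In injured inhibitor libraries Csf3r had 6, 2, 23 and 13 counts and S100a9 5, 2, 2 and 2, while S100a8, Retnlg and Ltf had at most 3. Csf3r, with 86 counts, made up most of the sum in injured placebo 3. The 4 bone markers summed to 2.65, 2.69, 2.69 and 5.47 CPM in the same order, against at most 0.583 CPM elsewhere. Bglap and Ibsp were at 0 in all of the other 12 libraries. Of the fibroblast list, all 7 markers were detected, at 637, 2125, 1390 and 2826 summed CPM in this order, against 214 to 662 CPM elsewhere, a range that includes healthy inhibitor 1. The largest contributor in injured placebo 2, injured placebo 3 and healthy placebo 4 was Col1a1. It had 2513, 40416, 16355 and 47506 counts in this order, against 442 to 5034 elsewhere. Dendritic cell markers summed to 9.24, 17.7, 17.2 and 10.6 CPM in this order, against 8.57 to 13.1 CPM elsewhere, so both injured placebo libraries were above all others. Zbtb46, at 150 to 240 counts in every library, made up most of this sum except in injured placebo 2 and 3. In healthy placebo 4, Flt3 and Itgax had 23 and 41 counts, against at most 6 and 23 in the 12 libraries poor in Prg4. Xcr1 and Clec9a, with 7 and 14 counts in healthy placebo 4, lay within the range of those 12.

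Endothelial markers ran the other way, with 242, 176, 178 and 211 CPM in this order, against 219 to 305 CPM elsewhere. Injured placebo 2, injured placebo 3 and healthy placebo 4 were thus the lowest of the 16 libraries. Adipocyte markers summed to 195, 15.3, 80.3 and 34.9 CPM, against 19.8 to 914 CPM elsewhere, with injured placebo 2 the lowest of all. The mast cell sums, 10.3, 6.98, 11.9 and 8.25 CPM, lay within the 2.22 to 14.8 CPM of the other 12 libraries. T and NK cell markers had 2.15, 5.42, 2.81 and 2.82 CPM, against 0.956 to 4.13 CPM, so only injured placebo 2 exceeded the others. The part of these cell types in the results for the members was not tested. Healthy inhibitor 1 was rich in Prg4, in neutrophil markers and in bone markers. Its myeloid-restricted sum of 48.6 CPM lay below that of the other 3 such libraries. It lay above the 22.8, 24.9 and 19.0 CPM of healthy inhibitor 2, 3 and 4. For 14 of the 20 myeloid-restricted genes healthy inhibitor 1 was among the 5 highest libraries.

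**Figure D2:**
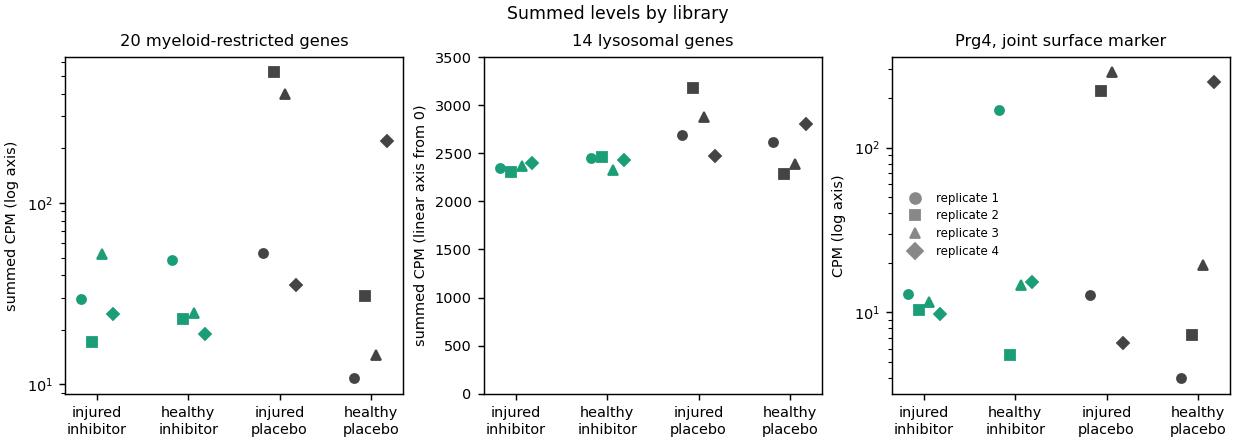
Summed CPM of the 20 myeloid-restricted genes (log axis), summed CPM of the 14 lysosomal genes (linear axis) and CPM of Prg4 (log axis) in each of the 16 libraries, with green for inhibitor, grey for placebo and a marker shape for each replicate. Injured placebo 2, injured placebo 3 and healthy placebo 4 are highest in all panels, with myeloid-restricted sums of 525, 400.4 and 221 CPM, while healthy inhibitor 1 has 169 CPM of Prg4 and 48.6 CPM of myeloid-restricted RNA.

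The comparison of the inhibitor with placebo in injured quadriceps asks how the drug altered the muscle after ligament injury. All 37 members had a negative log2 difference (inhibitor minus placebo), against 53.1% of all tested genes, but none passed the test. By edgeR's quasi-likelihood test, 0 of 15411 genes had an adjusted p under 0.05 after Benjamini-Hochberg adjustment, and 2289 had an unadjusted p under 0.05. The median log2 difference was -2.88 over the myeloid-restricted genes, -0.93 over the 3 shared genes and -0.50 over the lysosomal genes (-1.77 to -0.09), against -0.02 over all genes. An unadjusted p under 0.05 in this direction was found for 20 of 20, 2 of 3 and 8 of 14 members of the classes, which is 30 of 37 against 9.03% of all genes. Aif1, Ms4a7 and Ncf4 are counted among these 20, but they did not pass the filter on the libraries of this comparison alone, so no fitted difference is given for them. With those libraries only, 34 members were tested, all of them negative, and the myeloid-restricted median was -2.92. In that fit 27 of 34 members had an unadjusted p under 0.05, against 13.3% of tested genes. Adjusted p-values of the members were 0.224 to 0.699. DESeq2 called 248 genes (1.61%), including 5 members (Itgb2, Itgam, Ctss, Fcer1g and Cyba), and limma-voom with quality weights called 1229 genes (7.97%), including 15 members. Without injured placebo 2, 14 of 37 members had an unadjusted p under 0.05, against 8.23% of tested genes, and the lysosomal median was -0.33.

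Among adhesion and recognition receptors, the integrin chains had the smallest p-values. Itgam, the alpha chain of the complement receptor that myeloid cells use to bind opsonized particles, had 1.58, 0.741, 1.28 and 0.933 CPM in injured inhibitor libraries, against 3.17, 23.7, 15.9 and 2.14 CPM in injured placebo libraries. All 4 inhibitor values lay below all 4 placebo values, and the log2 difference was -3.30 ± 1.00 (SE, unadjusted p = 0.00556, adjusted p = 0.226 by edgeR). Itgb2, the beta chain that pairs with Itgam, had 1.19, 0.635, 2.19 and 1.48 CPM in injured inhibitor libraries, against 2.41, 26.6, 16.5 and 2.14 CPM in injured placebo libraries. Here injured placebo 4 lay within the inhibitor range, and the log2 difference was -3.10 ± 0.91 (adjusted p = 0.224 by edgeR). Adgre1, the surface receptor most used to identify mouse macrophages, had 2.01, 0.212, 2.60 and 1.99 CPM in injured inhibitor libraries, against 4.87, 30.5, 19.5 and 2.60 CPM in injured placebo libraries. The groups did not overlap, although the highest inhibitor value and the lowest placebo value were nearly equal, and the log2 difference was -3.06 ± 1.06 (adjusted p = 0.238 by edgeR).

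Cd14 had 2.29, 0.900, 2.56 and 1.57 CPM in injured inhibitor libraries, against 2.06, 8.18, 7.38 and 1.68 CPM in injured placebo libraries, and it showed the smallest log2 difference of its class, -1.39 ± 0.54. Cd84, a receptor of the SLAM family on leukocytes, had 0.765, 0.794, 1.45 and 0.721 CPM in injured inhibitor libraries, against 1.03, 10.7, 9.06 and 0.504 CPM in injured placebo libraries. In both genes injured placebo 2 and 3 were well above every other library of the comparison, and the other placebo libraries lay within or near the inhibitor range. Ms4a7 had 0.287, 0.423, 0.289 and 0.255 CPM in injured inhibitor libraries, against 0.402, 17.2, 10.9 and 0.588 CPM in injured placebo libraries and was at or below 14 counts in all of them but injured placebo 2 and 3. Aif1, a cytosolic protein used to stain macrophages and microglia, had 0.287, 0.106, 0.454 and 0.255 CPM in injured inhibitor libraries, against 0.179, 4.87, 1.88 and 0.126 CPM in injured placebo libraries. Both groups of Aif1 held values at or near the floor. Cx3cr1, the fractalkine receptor, Msr1, Mpeg1, which encodes a pore-forming protein of phagosomes, and Laptm5, a lysosomal membrane protein of blood cells, had log2 differences of -3.60 ± 1.39, -2.75 ± 1.14, -3.54 ± 1.34 and -2.38 ± 0.99.

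Both ITAM adaptors, which carry the signal of receptors that lack their own tail motif, followed the same pattern. Fcer1g, which pairs with the activating Fc receptors, had 0.860, 0.688, 2.27 and 0.679 CPM in injured inhibitor libraries, against 2.73, 23.3, 16.8 and 1.72 CPM in injured placebo libraries, a log2 difference of -3.29 ± 1.02 (adjusted p = 0.227 by edgeR). Tyrobp, the adaptor of Trem2 and related receptors, had 0.812, 0.423, 1.49 and 1.06 CPM in injured inhibitor libraries, against 1.74, 15.4, 10.7 and 1.09 CPM in injured placebo libraries, a log2 difference of -2.92 ± 0.99 (adjusted p = 0.233 by edgeR). In each, injured inhibitor 3 was the highest inhibitor library and lay above injured placebo 4 but below injured placebo 1. The activating receptors Fcgr1 and Fcgr3 had log2 differences of -3.66 ± 1.37 and -2.84 ± 0.94, and the inhibitory receptor Fcgr2b had -2.28 ± 0.98. Fcgr2b and Fcgr3 lie 74627 bases apart on chromosome 1 and have similar sequences, and how the authors' counting shared reads between them is not given in the sources used here, so their separate values are uncertain.

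The NADPH oxidase subunits belong to both the myeloid-restricted and the shared class. Cybb, the catalytic membrane subunit, and Ncf1, a cytosolic subunit that joins it upon activation, had log2 differences of -2.83 ± 1.05 and -2.81 ± 0.94. Ncf4, another cytosolic subunit, had 0.382, 0.265, 0.248 and 0.170 CPM in injured inhibitor libraries, against 0, 3.67, 3.45 and 0.294 CPM in injured placebo libraries. Ncf1 had 1.10, 1.16, 0.661 and 1.27 CPM in injured inhibitor libraries, against 1.65, 14.6, 11.6 and 1.68 CPM in injured placebo libraries, with no overlap. Cyba, the membrane partner of Cybb that is also made with other oxidases in other cells, had 2.49, 2.54, 4.25 and 1.99 CPM in injured inhibitor libraries, against 2.77, 19.9, 18.1 and 2.98 CPM in injured placebo libraries, where injured placebo 1 and 4 lay inside the inhibitor range. Its log2 difference was -1.95 ± 0.62 (unadjusted p = 0.00720, adjusted p = 0.229 by edgeR).

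The receptors for dying cells had smaller differences. Mertk had 2.06, 1.69, 2.60 and 3.31 CPM in injured inhibitor libraries, against 5.36, 4.76, 4.85 and 3.53 CPM in injured placebo libraries, so that the groups did not overlap. The means were 2.41 ± 0.703 and 4.63 ± 0.779 CPM (SD, n = 4 each), and the log2 difference was -0.93 ± 0.30 (unadjusted p = 0.00651, adjusted p = 0.228 by edgeR). Axl, which fibroblasts also express, had 37.1, 25.2, 39.2 and 31.3 CPM in injured inhibitor libraries, against 28.5, 66.7, 72.7 and 30.9 CPM in injured placebo libraries, a log2 difference of -0.58 ± 0.43, and its groups overlapped. Of all members, 5 had all 4 injured inhibitor libraries below all 4 injured placebo libraries (Adgre1, Itgam, Ncf1, Mertk and Ctsb), against 2.87% of tested genes.

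Among digestive enzymes, cathepsin S had the largest difference. Ctss, which trims the invariant chain in antigen-presenting cells, had 2.44, 2.28, 5.70 and 1.82 CPM in injured inhibitor libraries, against 4.20, 100.5, 69.5 and 3.02 CPM in injured placebo libraries, a log2 difference of -3.85 ± 1.28 (adjusted p = 0.233 by edgeR). Its group means were 3.06 ± 1.78 and 44.3 ± 48.7 CPM (SD, n = 4 each), the placebo spread being larger than its mean. Ctsk, its neighbour on the chromosome, had 3.30, 3.65, 5.66 and 3.86 CPM in injured inhibitor libraries, against 1.61, 28.8, 21.7 and 4.11 CPM in injured placebo libraries. Its log2 difference of -1.77 ± 1.08 had an unadjusted p of 0.125 by edgeR, and injured placebo 1 lay below all inhibitor libraries. The summed level of 4 detected osteoclast markers was 1.48 to 21.5 CPM in injured inhibitor libraries, against 5.21 to 15.8 CPM in injured placebo libraries.

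Lgmn, the asparaginyl endopeptidase that activates cathepsins, had 20.0, 21.0, 27.9 and 23.8 CPM in injured inhibitor libraries, against 28.1, 104, 81.4 and 19.2 CPM in injured placebo libraries, a log2 difference of -1.33 ± 0.46 (adjusted p = 0.238 by edgeR). Ctsz, a carboxypeptidase, had 16.5, 15.5, 16.1 and 18.4 CPM in injured inhibitor libraries, against 18.0, 52.6, 45.3 and 18.0 CPM in injured placebo libraries. For Lgmn, injured placebo 4 lay below all inhibitor libraries, and for Ctsz injured placebo 1 and 4 lay within their range. Lipa had 8.12, 4.29, 7.85 and 7.80 CPM in injured inhibitor libraries, against 12.6, 23.1, 27.4 and 7.93 CPM in injured placebo libraries. Grn, the precursor of granulins, and Npc2, which moves cholesterol out of the lysosome, had log2 differences of -1.39 ± 0.51 and -0.82 ± 0.30.

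The more even lysosomal genes had small differences with small errors. Hexa, a subunit of beta-hexosaminidase, had 41.8, 36.1, 35.8 and 37.2 CPM in injured inhibitor libraries, against 42.4, 66.6, 60.6 and 41.0 CPM in injured placebo libraries. Its log2 difference was -0.48 ± 0.14, and its unadjusted p of 0.00416 was the smallest of the 37 members (adjusted p = 0.224 by edgeR). Ctsb had 304, 295, 316 and 315 CPM in injured inhibitor libraries, against 352, 510.1, 441 and 316 CPM in injured placebo libraries, with a log2 difference of -0.40 ± 0.14. Its groups did not overlap, although the highest inhibitor value and the lowest placebo value, 315.5 and 315.9 CPM, were nearly equal. Ctsl, the collaborating cysteine cathepsin, had 88.4, 74.8, 70.7 and 84.4 CPM in injured inhibitor libraries, against 117, 109, 96.7 and 84.2 CPM in injured placebo libraries, a log2 difference of -0.35 ± 0.13. The abundant members were nearly level. Ctsd had 621, 579, 537 and 561 CPM in injured inhibitor libraries, against 619, 649.6, 585 and 585 CPM in injured placebo libraries, and a log2 difference of -0.09 ± 0.09. Psap had 612, 653, 667 and 708 CPM in injured inhibitor libraries, against 691, 802, 753 and 740.1 CPM in injured placebo libraries, and a difference of -0.18 ± 0.09. Lamp2, a membrane protein needed for fusion with autophagosomes, had 93.9, 92.0, 98.8 and 87.6 CPM in injured inhibitor libraries, against 113, 119.7, 118 and 86.8 CPM in injured placebo libraries, and a difference of -0.23 ± 0.13. Gusb, a beta-glucuronidase, and Lamp1 had -0.53 ± 0.28 and -0.12 ± 0.10.

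**Figure D3:**
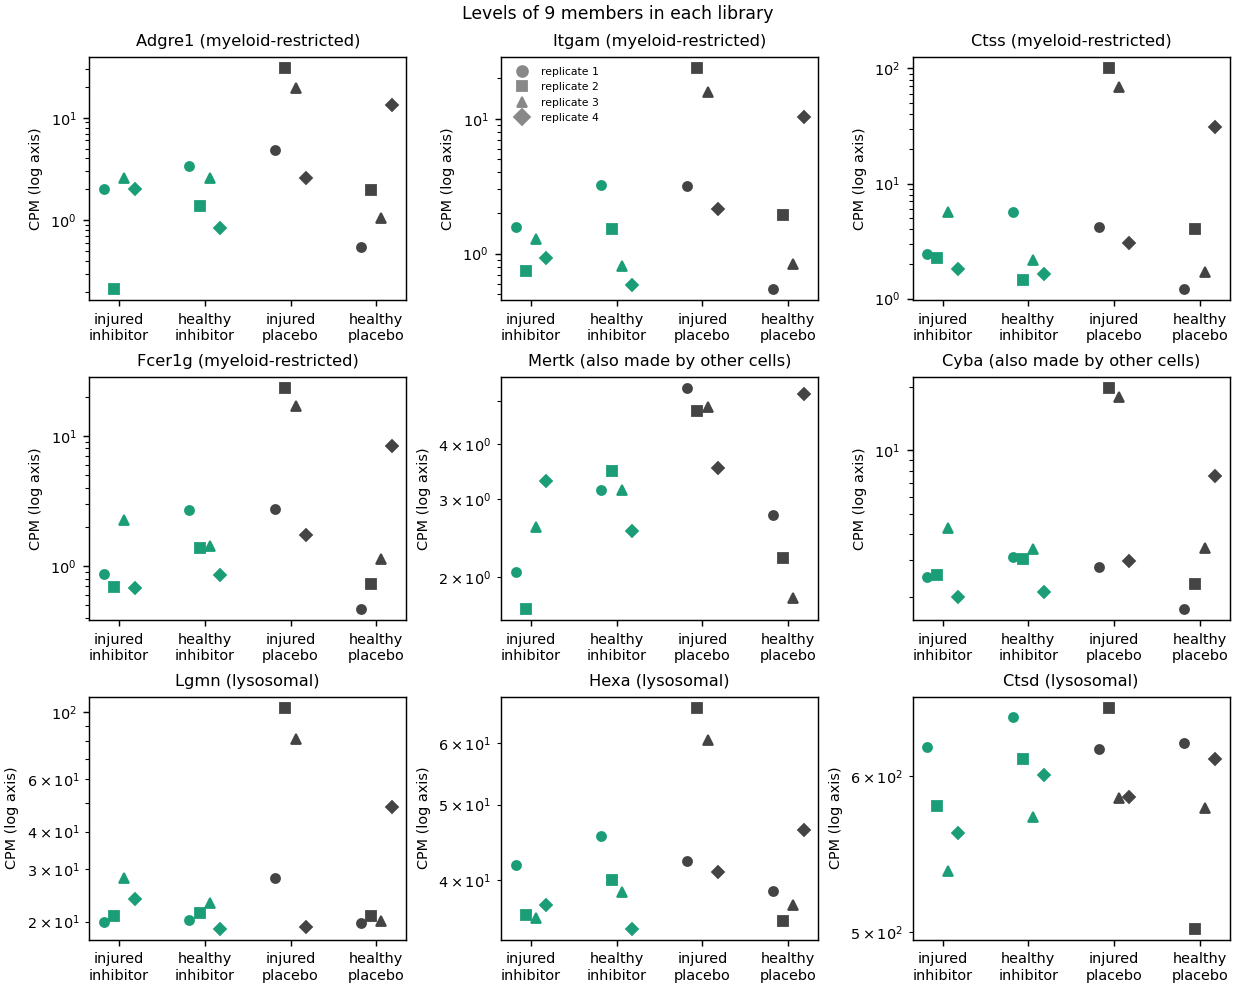
CPM (log axes, each with its own range) of 9 members in each of the 16 libraries, by group, with a marker shape for each replicate. In Adgre1, Itgam and Mertk all 4 injured inhibitor libraries lie below the 4 injured placebo libraries, in Ctss, Fcer1g, Cyba, Lgmn and Hexa injured placebo 2 and 3 lie above all other libraries, and Ctsd spans 502 to 649.6 CPM in all.

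**Figure D4:**
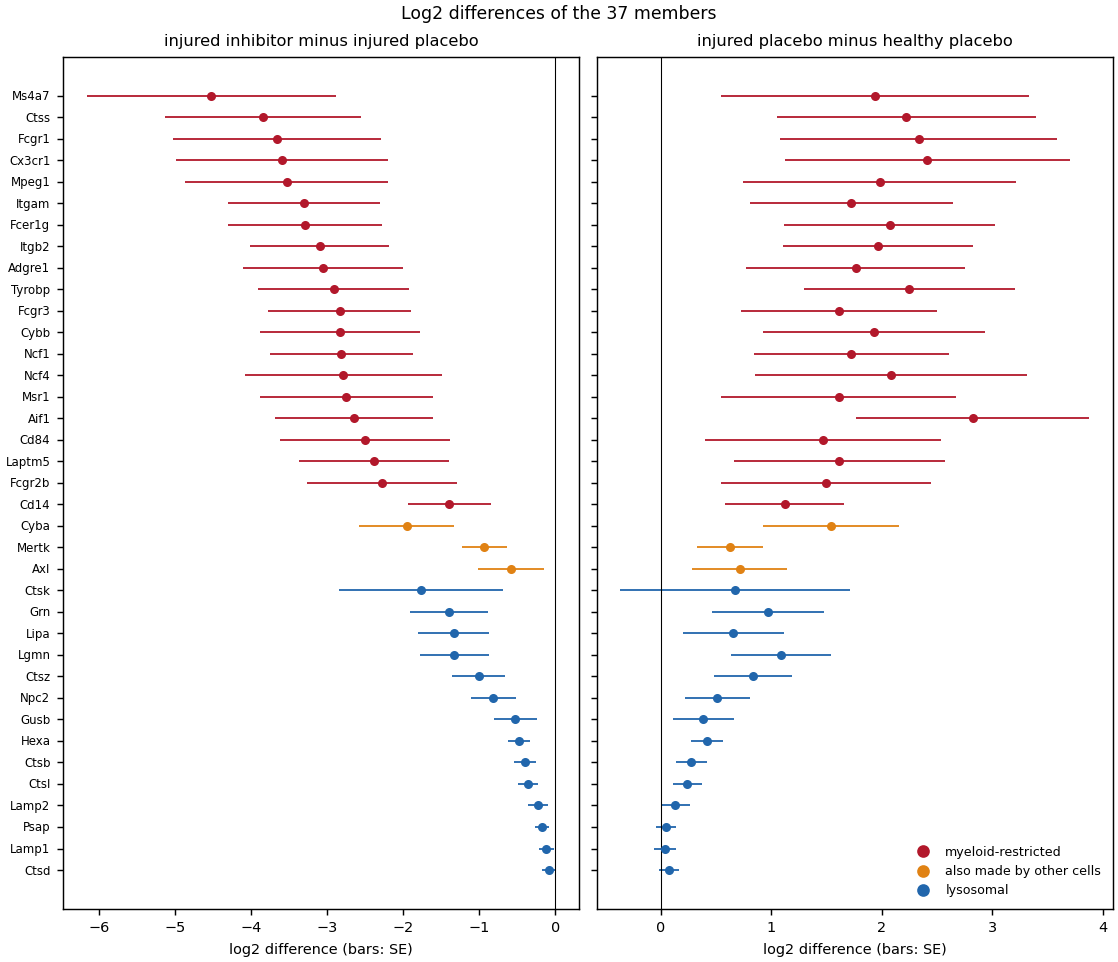
Log2 differences with SE of the 37 members for injured inhibitor minus injured placebo (left) and injured placebo minus healthy placebo (right), coloured by class. All 37 are negative on the left and all 37 positive on the right, with medians of -2.88 and 1.94 over the myeloid-restricted and -0.50 and 0.40 over the lysosomal genes; both panels use the same injured placebo libraries.

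Leaving out the 4 libraries over 100 CPM of Prg4, a step chosen after seeing the data, left a smaller difference. Aif1 and Ncf4 then fell under the filter on low counts, and the remaining 35 members were tested. The median log2 difference of the myeloid-restricted genes was -0.55, with 16 of 18 negative, and that of the lysosomal genes was -0.11, with 12 of 14 negative, against 49.5% of tested genes. No member passed the test (0 genes called by edgeR). An unadjusted p under 0.05 was found for 3 of 35 members and for 6.33% of tested genes, so this count lay near the background. The 3 were Mertk (-0.87 ± 0.30), Itgam (-1.22 ± 0.50) and Fcgr3 (-1.18 ± 0.52). With all libraries the log2 difference of Mertk was -0.93 ± 0.30. In this fit the injured placebo group holds 2 libraries, numbers 1 and 4.

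**Figure D5:**
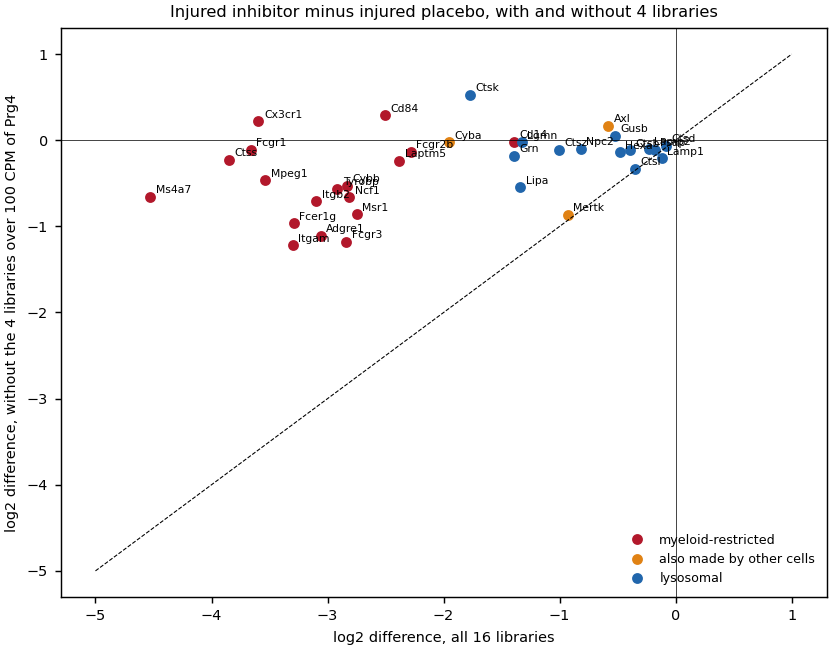
Log2 difference of injured inhibitor minus injured placebo with all 16 libraries (horizontal) and without the 4 libraries over 100 CPM of Prg4 (vertical) for the 35 members tested in both fits, coloured by class; the dashed line marks equal values. Most myeloid-restricted genes lie far above the line, with a median of -0.55 in place of -2.88, and Mertk lies on it.

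The comparison of injured with healthy quadriceps under placebo asks how ACL transection altered the muscle without the drug. All 37 members had positive log2 differences (injured minus healthy), against 51.1% of tested genes. None passed the test: edgeR called 0 genes and gave 1116 an unadjusted p under 0.05, DESeq2 called 2 genes and limma-voom 0. The median was 1.94 over the myeloid-restricted genes, 0.72 over the shared genes and 0.40 over the lysosomal genes (0.04 to 1.09), against 0.01 over all genes. An unadjusted p under 0.05 with a positive difference was found for 4, 2 and 3 members of these classes, 9 of 37 in all, against 4.61% of tested genes. Aif1 and Ncf4 did not pass the filter on the placebo libraries alone. With those libraries only, all 35 members tested were positive and 1 had an unadjusted p under 0.05, against 2.67% of tested genes. The injured placebo libraries also serve the comparison above, so the 2 sets of values are not independent.

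Adgre1 had 4.87, 30.5, 19.5 and 2.60 CPM in injured placebo libraries, against 0.545, 1.99, 1.04 and 13.4 CPM in healthy placebo libraries, a log2 difference of 1.76 ± 0.99. Aif1 had 0.179, 4.87, 1.88 and 0.126 CPM in injured placebo libraries, against 0.0779, 0.136, 0.291 and 0.485 CPM in healthy placebo libraries, and passed the filter through libraries of other groups, so its fitted difference is not given. Healthy placebo 4 was the highest of its group in both and overlapped the injured group. Tyrobp, with 0.506, 0.632, 0.541 and 4.41 CPM in healthy placebo libraries, had a difference of 2.25 ± 0.95. Itgb2, with 0.778, 2.17, 0.832 and 8.47 CPM there, had 1.97 ± 0.86, and Fcer1g, with 0.467, 0.723, 1.12 and 8.33 CPM in healthy placebo libraries, had 2.07 ± 0.95. Each of these 3 had an adjusted p of 0.641 by edgeR, and in each healthy placebo 4 lay above the injured placebo libraries 1 and 4. Ctss had 1.21, 4.02, 1.71 and 31.1 CPM in healthy placebo libraries and a difference of 2.22 ± 1.17. In none of the 37 members were all 4 injured libraries above all 4 healthy ones, against 0.87% of tested genes.

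Cyba had a log2 difference of 1.54 ± 0.61, with 1.75, 2.30, 3.41 and 7.58 CPM in healthy placebo libraries. For Mertk the difference was 0.63 ± 0.30 and the healthy placebo libraries had 2.76, 2.21, 1.79 and 5.20 CPM in healthy placebo libraries, so that 3 of the 4 healthy libraries lay below every injured one. Axl had 10.8, 31.2, 20.7 and 58.5 CPM there and a difference of 0.72 ± 0.43. Of the lysosomal genes, Hexa, with 38.8, 35.4, 37.2 and 46.3 CPM in healthy placebo libraries, had a difference of 0.42 ± 0.14 (unadjusted p = 0.0105, adjusted p = 0.641 by edgeR). Lgmn, with 19.8, 21.0, 20.2 and 48.2 CPM in healthy placebo libraries, had 1.09 ± 0.45, and Ctsz, with 13.5, 12.6, 17.8 and 31.2 CPM in healthy placebo libraries, had 0.84 ± 0.35. Ctsd, Psap and Lamp1 had differences of 0.07 ± 0.09, 0.05 ± 0.09 and 0.04 ± 0.10.

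This comparison depended on single libraries. Without healthy placebo 4 the median of the myeloid-restricted genes was 3.65 and 32 of 37 members had an unadjusted p under 0.05, against 16.3% of tested genes. Without injured placebo 2 the median was 1.20 and the count was 0, against 3.09%. The count was 17 without injured placebo 1 (12.5% of tested genes) and 22 without injured placebo 4 (15.8%). It was 2 without injured placebo 3 or any 1 of the other 3 healthy placebo libraries, against 3.26% to 7.52% of tested genes. Without the 4 libraries over 100 CPM of Prg4 the median was 1.29 over 18 genes, all of them positive, and 0.14 over the lysosomal genes, with 8 of 35 members at an unadjusted p under 0.05, against 3.93% of tested genes. With the animal as a block, 1 of 37 members had an unadjusted p under 0.05 for this comparison by edgeR, against 5.76% of tested genes, and the myeloid-restricted median was 2.61. Read within animals by the library names, the limbs of 1 placebo animal ran against the others. In placebo animals 1, 2 and 3, 19, 20 and 20 of the 20 myeloid-restricted genes were higher in the injured limb, with median log2 differences of 1.40, 3.38 and 3.48. In placebo animal 4, 0 of 20 were higher in the injured limb, and the median was -2.08. The lysosomal genes were higher in the injured limb for 11, 14, 13 and 1 of 14 in the same order.

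Under the inhibitor, the differences between injured and healthy quadriceps had medians near 0 with all libraries, and their sign depended on single libraries. Over the myeloid-restricted genes 12 of 20 log2 differences were positive (injured minus healthy), with a median of 0.20. Over the lysosomal genes 6 of 14 were positive with a median of -0.04, and 51.0% of all tested genes were positive. No member had an unadjusted p under 0.05, against 0.766% of tested genes with a positive and 0.545% with a negative difference. EdgeR called 0 genes and gave 202 an unadjusted p under 0.05, DESeq2 called 1 and limma-voom 0. Itgam had 1.58, 0.741, 1.28 and 0.933 CPM in injured inhibitor libraries, against 3.20, 1.53, 0.804 and 0.582 CPM in healthy inhibitor libraries, a difference of -0.43 ± 0.99. Cd84 had the largest positive difference, 1.18 ± 1.20, with 0.765, 0.794, 1.45 and 0.721 CPM in injured inhibitor libraries, against 1.01, 0.191, 0.383 and 0.0529 CPM in healthy inhibitor libraries, and Fcer1g the largest negative one among members that passed the filter on these libraries alone, -0.48 ± 1.00. A p above the threshold does not show that the limbs were alike: the SE of these 3 differences was about as large as the difference or larger.

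On the inhibitor libraries alone, 31 of 37 members passed the filter (not Aif1, Cx3cr1, Fcgr1, Ms4a7, Msr1 or Ncf4). Of the 14 myeloid-restricted genes among them 8 were positive, with a median of 0.13. With 1 library left out, the myeloid-restricted median ranged over -0.27 to 0.45. It was -0.27 without injured inhibitor 3, with 6 of 20 positive, and 0.45 without healthy inhibitor 1, with 17 of 20 positive. It was 0.00, 0.05 and 0.02 without healthy inhibitor 2, 3 or 4. Without the 4 libraries over 100 CPM of Prg4, of which healthy inhibitor 1 is the only one in these groups, 15 of 18 were positive with a median of 0.45, against 51.4% of tested genes. Cd84 then had a difference of 2.08 ± 0.61 (unadjusted p = 0.00406, adjusted p = 0.999 by edgeR), and it alone of 35 members had an unadjusted p under 0.05, against 3.41% of tested genes.

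Within inhibitor animals the direction varied. Animals 1, 2, 3 and 4 had 1, 5, 20 and 14 of the 20 myeloid-restricted genes higher in the injured limb, with median log2 differences of -0.53, -0.25, 0.69 and 0.11. Mertk was the shared gene with the smallest p, at 2.06, 1.69, 2.60 and 3.31 CPM in injured inhibitor libraries, against 3.16, 3.48, 3.14 and 2.54 CPM in healthy inhibitor libraries, a difference of -0.35 ± 0.30 (unadjusted p = 0.264 by edgeR). Lamp2, with 93.9, 92.0, 98.8 and 87.6 CPM in injured inhibitor libraries, against 95.5, 72.2, 81.3 and 84.7 CPM in healthy inhibitor libraries, had the smallest p among lysosomal genes, with a difference of 0.16 ± 0.13 (unadjusted p = 0.249 by edgeR). Ctsd and Psap were next, with differences of -0.08 ± 0.09 and -0.06 ± 0.09. Ctsd had 643, 612, 572 and 601 CPM in healthy inhibitor libraries and Psap 644, 719, 669 and 726 CPM in healthy inhibitor libraries.

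In healthy quadriceps the inhibitor was compared with placebo away from the injury. All 20 myeloid-restricted genes had a negative log2 difference (inhibitor minus placebo) with a median of -1.03, and 12 of 14 lysosomal genes did, with a median of -0.14. A negative difference was found for 54.0% of tested genes. No member had an unadjusted p under 0.05, against 2.03% of tested genes with a negative difference. EdgeR called 0 genes and gave 514 an unadjusted p under 0.05, DESeq2 called 12 and limma-voom 0. Ctss had 5.67, 1.45, 2.18 and 1.64 CPM in healthy inhibitor libraries, against 1.21, 4.02, 1.71 and 31.1 CPM in healthy placebo libraries, a difference of -1.80 ± 1.23. Ms4a7 had 0.549, 0, 0.0766 and 0.159 CPM in healthy inhibitor libraries, against 0, 0.361, 0.0416 and 7.19 CPM in healthy placebo libraries, and no fitted difference is given for it, because it passed the filter through libraries of other groups. On the libraries of this comparison alone 30 of 37 members passed (not Aif1, Cd84, Cx3cr1, Fcgr1, Ms4a7, Msr1 or Ncf4), and all 13 myeloid-restricted genes among them were negative, with a median of -1.02. Healthy placebo 4 alone was high in Ctss and Ms4a7, and without it the median of the myeloid-restricted genes was 0.55, with 18 of 20 positive, against 50.2% of tested genes. Without the 4 libraries over 100 CPM of Prg4 the median was 0.01, with 10 of 18 positive.

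Ctsk had 5.35, 2.90, 3.68 and 1.43 CPM in healthy inhibitor libraries, against 0.584, 1.94, 2.25 and 30.6 CPM in healthy placebo libraries, and Lipa had 7.82, 6.38, 5.55 and 5.40 CPM in healthy inhibitor libraries, against 7.05, 9.85, 4.41 and 23.8 CPM in healthy placebo libraries. Healthy placebo 4 was the highest library of both genes in this comparison. Lamp2 had 95.5, 72.2, 81.3 and 84.7 CPM in healthy inhibitor libraries, against 93.1, 105, 77.6 and 123 CPM in healthy placebo libraries, and the smallest unadjusted p of the lysosomal genes, 0.0701 by edgeR, with a log2 difference of -0.26 ± 0.13. Mertk and Axl had differences of 0.04 ± 0.30 and 0.06 ± 0.43, with 41.4, 28.4, 29.3 and 26.9 CPM of Axl in healthy inhibitor libraries.

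Whether injury acted differently under the inhibitor was tested as the difference of the injury effects (inhibitor minus placebo). It was negative for 36 of 37 members, against 50.5% of tested genes, with a median of -1.99 over the myeloid-restricted and -0.40 over the lysosomal genes. None passed the test. EdgeR called 0 genes and gave 423 an unadjusted p under 0.05, and DESeq2 and limma-voom called 0. An unadjusted p under 0.05 with a negative value was found for 2 members, against 1.38% of tested genes. These were Hexa, at -0.49 ± 0.20 (unadjusted p = 0.0283), and Mertk, at -0.98 ± 0.42 (unadjusted p = 0.0340), each with an adjusted p of 0.998 by edgeR. Without healthy placebo 4 the myeloid-restricted median was -3.73 and 28 of 37 members had an unadjusted p under 0.05, against 8.12% of tested genes. The count was 8 without injured placebo 4 (6.06% of tested genes) and 4 without injured placebo 1 (5.48%). With the animal as a block, 1 member had an unadjusted p under 0.05, against 2.02% of tested genes. Without the 4 libraries over 100 CPM of Prg4 the median over the myeloid-restricted genes was -0.64, and 3 of 35 members had an unadjusted p under 0.05, against 2.47% of tested genes.

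Other genes of the same pathways, on lists drawn up with earlier results of these data known, were also compared in injured quadriceps (inhibitor minus placebo). Over all tested genes 53.1% were negative, 9.03% were negative with an unadjusted p under 0.05, and the median was -0.02. Values of these lists are from all 16 libraries and are not given without the 4 libraries over 100 CPM of Prg4. Of 14 further genes of Fc receptor and ITAM signalling, all 14 were negative with a median log2 difference of -2.30. An unadjusted p under 0.05 by edgeR was found for 13. The 14 include genes near the floor of 3 counts in injured inhibitor libraries, so these counts and the median rest in part on such genes. The kinase Btk had 5, 2, 6 and 4 counts there, against 17, 72, 41 and 11 in injured placebo libraries. The Src-family kinase Fgr had 2, 1, 2 and 0 counts in injured inhibitor libraries, against 11, 161, 67 and 6 in injured placebo libraries. Fcgr4, another Fc receptor, had 0, 0, 12 and 1 counts, against 1, 126, 56 and 3. The fitted differences of these genes are not given. Of 7 macrophage transcription factors with Csf1r, 6 were negative with a median of -1.28 and 4 had an unadjusted p under 0.05. Spi1, which encodes PU.1, had -2.53 ± 0.78, Irf8 had -1.28 ± 0.39, and Csf1r had -2.10 ± 0.81. Of 10 further genes for the uptake of dying cells, 9 were negative with a median of -0.34 and 3 had an unadjusted p under 0.05, among them the engulfment factor Elmo1 at -0.86 ± 0.26.

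The wider lysosome had smaller differences. Of 37 other lysosomal enzymes and membrane proteins, 29 were negative with a median of -0.32, and 14 had an unadjusted p under 0.05, led by the dipeptidyl peptidase Ctsc at -0.82 ± 0.18 and the tetraspanin Cd63 at -0.72 ± 0.18. Of 15 subunits of the proton pump that acidifies the lysosome, 12 were negative with a median of -0.14 and 4 had an unadjusted p under 0.05, including Atp6v1a at -0.50 ± 0.15. Of 4 tested transcription factors of lysosomal genes, 2 were negative, with Tfe3 at -0.32 ± 0.14 and the repressor Zkscan3 at 0.32 ± 0.09. No gene of these lists had an adjusted p under 0.05 by edgeR. For injury under placebo, where 51.1% of tested genes were positive and their median was 0.01, the medians were 1.44 for Fc receptor and ITAM signalling (14 of 14 positive), 0.73 for the macrophage factors (6 of 7), 0.30 for the uptake of dying cells (10 of 10), 0.12 for the other lysosomal proteins (24 of 37) and 0.06 for the proton pump (11 of 15).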

How the data were processed

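Each of the 16 libraries was total RNA of mouse quadriceps, isolated with TRIzol and a Zymo kit per the labels' protocols. The authors deposited expected counts per Ensembl gene, which were not normalized; 33.8% of values were not whole and were rounded. The tools named in the submitters' processing notes are DESeq2, Partek and STAR, on GRCm38 (mm10), without versions or roles. The strand setting of the counting and its treatment of shared reads are not given in the sources used here. Symbols and exon lengths came from GENCODE M21 by Ensembl ID and matched 17338 of 17370 genes.

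The filter of edgeR 4.0.16 (filterByExpr, minimum count 10; R 4.3.3) took out 1959 genes. After TMM scaling, a model with a mean per group was fitted to the 16 libraries together by robust quasi-likelihood (12 residual degrees of freedom, biological coefficient of variation 0.284). The 5 comparisons were two-sided, and p-values were adjusted by Benjamini-Hochberg across the 15411 genes, with a threshold of 0.05. They set each difference against the spread between these libraries. The main model treated the 16 libraries as independent and did not pair the limbs read as 1 animal. The script was checked on simulated counts. Alternatives used DESeq2 1.42.0, limma-voom (limma 3.58.1), other scaling and filters, blocks, and each library left out; the step without libraries over 100 CPM of Prg4 was chosen after seeing the data. Limbs were paired by the shared stem of the library names, read as 1 animal. The correlation of their deviations from the group means was 0.29, -0.05, -0.00 and -0.11 in inhibitor animals 1 to 4 and 0.53, -0.23, -0.12 and -0.58 in placebo animals 1 to 4. Any 2 libraries differed in at least 97.2% of genes.

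The members and lists were chosen with earlier results of these data known. Of the members, 21 are given library by library by a rule: the 3 smallest p of each class in each comparison, with Tyrobp and Fcer1g. Adgre1, Ncf1, Ncf4, Ctsb and Csf1r were added after their values were seen. Python 3.11.15 with matplotlib 3.10.9 drew the figures. A further list of genes is not reported here.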

Additional observations from a re-analysis of the deposited data

Results flagged for a closer look

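In groups of 4 libraries, a library was marked when its gap to the nearest other library exceeded Dixon's critical share of the range of the group, on log2(CPM + 0.5). This was looked at in 148 combinations of a member and a group, and chance alone marks about 1 group in 20. It marked 10. Their values are given without an explanation.

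Injured inhibitor 2 was lowest for Adgre1 (0.852 of the range), at 0.212 CPM against 1.99 to 2.60 CPM in the other 3 libraries, and lowest for Lipa (0.936), at 4.29 CPM against 7.80 to 8.12 CPM. Injured inhibitor 3 was highest for Cd84 (0.876), at 1.45 CPM, and for Fcer1g (0.832), at 2.27 CPM. Healthy inhibitor 1 was highest for Itgb2 (0.867), at 2.65 CPM against 1.48 to 1.61 CPM in the others.

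Healthy placebo 4 was highest for Cd84 (0.883), Fcgr2b (0.867), Lgmn (0.935) and Tyrobp (0.925), at 6.53, 13.1, 48.2 and 4.41 CPM. The lysosomal protease Lgmn was at 19.8 to 21.0 CPM in the other 3 libraries of that group. Healthy placebo 2 was lowest for Ctsl (0.905), at 63.9 CPM against 91.5 to 95.0 CPM.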

How the results depend on the processing

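Repeated under the alternatives, summary values were marked as the same 310 times and as moved 18 times. Counts of calls were the same if equal to the main value. Class medians were the same if they differed from it by less than the pooled SD, 1.1 for myeloid-restricted and 0.45 for lysosomal genes. This rule did not look at sign. With 1 library left out, the myeloid-restricted median ran from -0.27 to 0.45 for injury with inhibitor and from -1.57 to 0.55 for the inhibitor in healthy quadriceps. The 21 members given library by library by the rule kept their side of the threshold 1694 times and gained a call 15 times. The main fit called no member, so changes of sign concern values that were uncalled there. They were most frequent for the inhibitor in healthy quadriceps, in 12 of 131 myeloid-restricted, 8 of 45 shared and 14 of 135 lysosomal repeats. By DESeq2 the genes called were 2 for injury with placebo, 1 for injury with inhibitor, 248 for the inhibitor in injured quadriceps (5 members) and 12 for the inhibitor in healthy quadriceps, against 0 by edgeR in each. By limma-voom with quality weights, 1229 genes and 15 members were called for the inhibitor in injured quadriceps, and the myeloid-restricted median was 3.12 for injury with placebo and -3.15 for the difference of injury effects. Without the 4 libraries over 100 CPM of Prg4 that median was -0.55 for the inhibitor in injured quadriceps and -0.64 for the difference. The causes were not tested.

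With 1 library left out in turn, genes called ranged over 0 to 3 for injury with placebo, 0 to 39 for the inhibitor in injured quadriceps (39 without injured placebo 4) and 0 to 1 for the inhibitor in healthy quadriceps. The myeloid-restricted median ranged over 1.20 to 3.65 for injury with placebo, -0.27 to 0.45 for injury with inhibitor, -3.30 to -2.33 for the inhibitor in injured quadriceps, -1.57 to 0.55 for the inhibitor in healthy quadriceps and -3.73 to -1.28 for the difference. Members with an unadjusted p under 0.05 for the inhibitor in injured quadriceps fell to 14 of 37 without injured placebo 2, against 8.23% of tested genes.

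With the animal as a block, the median over the myeloid-restricted genes for injury with placebo was 2.61, and no call over all genes was gained or lost in the comparisons of limbs. Between treatments the same replicate number marks different animals; with that number as a block, 1 gene was called for the inhibitor in injured quadriceps. Aif1, Fcgr1, Ms4a7, Msr1 and Ncf4 had a library at 0, and differences among values under 3 counts were not detectable at this depth.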

Other observations

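Ctsk and the osteoclast markers did not follow each other across libraries. Ctsk had its highest values in healthy placebo 4, injured placebo 2 and injured placebo 3, at 30.6, 28.8 and 21.7 CPM. The summed level of the 4 detected osteoclast markers was 8.03, 15.8 and 5.21 CPM in these libraries, and it was highest in injured inhibitor 4, at 21.5 CPM, where Ctsk had 3.86 CPM. Acp5, the tartrate-resistant acid phosphatase of osteoclasts, was 18.2 CPM in that library, so most of the sum there came from 1 gene. Calcr and Ocstamp had 15 and 9 counts in injured inhibitor 4. Whether the sum follows the number of osteoclasts was not tested.

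Fcgr4, an activating Fc receptor outside the list, had 0, 0, 0.496 and 0.0424 CPM in injured inhibitor libraries, against 0.0447, 4.58, 2.25 and 0.126 CPM in injured placebo libraries, and was at 0 in 3 of the 4 healthy inhibitor and 3 of the 4 healthy placebo libraries. Its 3 highest libraries were those of the other Fc receptors. Ngp, a neutrophil granule gene, differed among the libraries rich in Prg4. It had 4.03 CPM in healthy inhibitor 1, 2.62 CPM in injured placebo 2, 0 CPM in injured placebo 3 and 6.22 CPM in healthy placebo 4.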
